A study of Zea mays with 9 samples.

Results

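The genes of ADP-glucose synthesis and of ADP-glucose import into the plastid were followed in the endosperm of 3 maize lines. The members were the genes that the array annotation ties to sh2, bt2, AGP2, Agpsemzm or bt1, found by symbol through the Entrez identifier of each probe set. Each probe set combines several short probes of a transcript into 1 value, its signal. The 5 genes had 6 probe sets among the 17621 on the array that are not array controls, and all 6 passed the filter on dim probe sets that left 12414 for testing. The gene sh2 had a pair of them, and every other member had 1. By gene, they were 5 of the 1108 that the annotation names by a single Entrez identifier.

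ADP-glucose is the sugar nucleotide from which starch synthases build starch. ADP-glucose pyrophosphorylase makes it from glucose 1-phosphate and ATP, and the enzyme is assembled from large and small subunits. In cereal endosperm most of this enzyme lies in the cytosol, so ADP-glucose has to enter the amyloplast, the plastid that holds the starch granule, through a carrier. Maize kernels that lack the endosperm subunits or the carrier are starch-poor and collapse on drying, which gave the genes shrunken2, brittle2 and brittle1 their names.

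The large subunit of the endosperm enzyme is encoded by sh2 (LOC542761), and the small subunit by bt2 (LOC541902). Agpsemzm (LOC542072) is named for the small subunit of the embryo enzyme. AGP2 (LOC542737) is a further subunit gene whose subunit type is not given by the annotation used here. The name is ambiguous, since RefSeq lists Agp2 as a synonym of the Agpsemzm gene too, so both are given with their locus. The carrier, an adenylate transporter of the mitochondrial carrier family, is encoded by bt1 (LOC732804).

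RNA came from endosperm of field-grown inbred plants 15 days after pollination, taken from the middle of the ear, with 3 arrays for each of the lines B73, ae wx and sh1. B73 is the line of the maize reference genome. The name ae wx refers to amylose extender, a branching enzyme locus, and waxy, a locus of granule-bound starch synthase, and the name sh1 to shrunken1, which encodes sucrose synthase. The labels call the replicates biological but name no alleles, do not say whether ears were pooled, and do not relate either mutant line to B73. A difference between lines therefore cannot be told apart from other differences of their genetic background.

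Across the 9 arrays the median signal lay between 241 and 256. B73 arrays varied most, with a median SD of a probe set of 0.18 (log2, n = 3) against 0.07 in ae wx and 0.08 in sh1. By its brightest probe set the sh1 gene read 1686 to 1965 in the line named for it, against 16903 to 18139 in B73, and wx1, the granule-bound starch synthase gene, was at 4156 to 5666 in ae wx against 13907 to 15122 in B73. The branching enzyme gene ae1 was not lower in ae wx, and no label says whether its transcript should be. All 10 starchy endosperm markers on the array, 6 genes of zeins and 4 of transcription factors that act on zein genes, were above every control probe set without a maize target. Their summed signal ranged from 92526 to 95912 in ae wx, from 95533 to 99134 in sh1 and from 113927 to 117110 in B73. Single markers went both ways. At a limma adjusted p under 0.05, 2 were higher and 5 lower in ae wx than in B73, and 1 higher and 5 lower in sh1 than in B73. Of all probe sets tested, 29% were higher and 24.3% lower in ae wx than in B73, and 30.4% and 25.4% in sh1 than in B73.

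By the brighter of its pair of probe sets, the large subunit gene sh2 was modestly higher in ae wx than in both other lines. Its signal was 15147, 15669 and 14649 in the ae wx arrays. The B73 arrays read 12983, 12610.1 and 13381, and the sh1 arrays read 12906, 13135 and 13399. All ae wx arrays lay above all others, while B73 and sh1 overlapped. The ae wx mean of 15155 ± 510.0 (SD, n = 3) was 1.17-fold the B73 mean of 12992 ± 386, with a difference of 0.22 ± 0.04 (SE, limma adjusted p = 0.00213). This and every later difference is one of line means of log2(signal + 16), and every adjusted p for a probe set is limma's over the 12414 probe sets. Against sh1 (13147 ± 247), ae wx differed by 0.20 ± 0.04 (adjusted p = 0.00504). In bulk RNA, a change in the share of cells that express a gene and a change in RNA per cell cannot be told apart.

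The small subunit gene bt2 followed the same order. The ae wx arrays read 11467, 11781.5 and 11117, the B73 arrays 9352, 8922 and 10316, and the sh1 arrays 9626, 9347 and 9598. Again ae wx stood above all 6 others, which overlapped among themselves. The mean of 11455 ± 332 (SD, n = 3) in ae wx was 1.20-fold that of B73 (9530.1 ± 714), a difference of 0.27 ± 0.06 (SE, adjusted p = 0.00403), and 1.20-fold that of sh1 (9524 ± 153), again a difference of 0.27 ± 0.06 (adjusted p = 0.00616). Between sh1 and B73, bt2 differed by 0.002 (95% interval −0.13 to 0.13), so a change beyond 1.10-fold either way lay outside the interval.

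**Figure D1:**
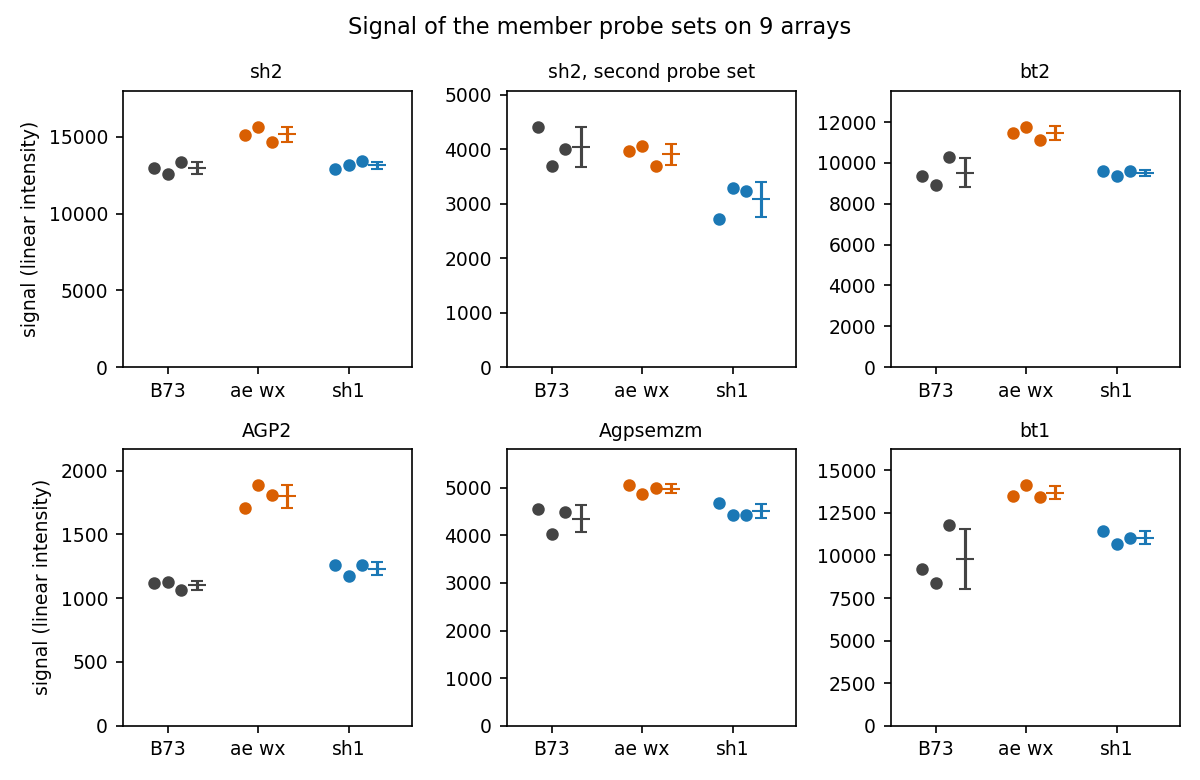
Signal (linear intensity, vertical axis from 0) of the 6 member probe sets on each of 9 arrays, 3 per line; points are arrays in replicate order and the bars beside them are the mean ± SD. The ae wx arrays lie above all others for sh2 (first probe set), bt2, AGP2, Agpsemzm and bt1, and the sh1 arrays lie below all others for the second probe set of sh2.

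Both subunits enter 1 enzyme. The log2 difference between their probe sets was taken within each array, a quantity that linear scaling of an array hardly moves. For sh2 minus bt2 it was 0.40 ± 0.01 (SD, n = 3) in ae wx, 0.46 ± 0.04 in sh1 and 0.45 ± 0.07 in B73. The 3 lines were compared by an exact permutation test of the F statistic over the 9 arrays, which can reach no p below 0.00357, with adjustment over the 3 within-array differences tested. These pairs were chosen with earlier results of these data known. The subunit difference did not pass it (exact permutation p = 0.268, adjusted p = 0.268). The line means lay within 0.06 of one another, and the size of the difference between probe sets carries no meaning of its own, because probe sets differ in how brightly they report. Without B73 replicate 3, whose value of 0.37 was the lowest of the 9, the exact permutation test gave adjusted p = 0.0357.

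The other probe set of sh2 did not show the pattern of the first. Its signal on the sh1 arrays was 2718, 3298 and 3234, beside 4417, 3701 and 4009 on the B73 arrays and 3970.1, 4054 and 3696 on the ae wx arrays. Here sh1 was the low line, below all 6 others, and B73 and ae wx overlapped. It was 1.31-fold lower in sh1 than in B73 (−0.39 ± 0.10 SE, adjusted p = 0.0074), and 1.27-fold higher in ae wx than in sh1 (0.34 ± 0.10, adjusted p = 0.0209). Between ae wx and B73 the difference was −0.05 (95% interval −0.27 to 0.17, adjusted p = 0.715).

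Within an array, the first probe set of sh2 exceeded the second by 2.09 ± 0.13 (log2, SD, n = 3) in sh1, 1.95 ± 0.03 in ae wx and 1.68 ± 0.11 in B73, with no overlap between the lines. The exact permutation test gave p = 0.00357, the smallest it can give, for a comparison chosen after the values were seen. The annotation gives both probe sets the same source sequence accession, and RefSeq lists 7 transcripts for sh2. Which of these each probe set reads is not stated in the files. Whether the lines differ in sequence at the probes was not tested. With the second probe set in place of the first, sh2 minus bt2 did differ between the lines (exact permutation adjusted p = 0.0321), so whether the subunit genes kept 1 ratio depends on which probe set stands for sh2.

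AGP2 had the largest relative difference among the member genes. Its ae wx arrays read 1707, 1888 and 1810, its sh1 arrays 1263, 1177 and 1259, and its B73 arrays 1118, 1126 and 1062. The 3 lines did not overlap, with ae wx high, sh1 between and B73 low. The mean was 1.63-fold higher in ae wx than in B73 (0.70 ± 0.08 SE, adjusted p = 8.11e-05), and 1.45-fold higher than in sh1 (0.54 ± 0.08, adjusted p = 0.000661). The step from B73 to sh1 did not pass the test (0.16 ± 0.08, 95% interval −0.03 to 0.34, adjusted p = 0.127), and it was 0.05 after quantile normalization of the arrays.

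Agpsemzm, the gene named for the embryo small subunit, was detected clearly in all 9 endosperm samples and varied little. The signal was 5058, 4878 and 5003 on the ae wx arrays, 4692, 4439 and 4419 on those of sh1, and 4557, 4021 and 4485 on those of B73. All ae wx arrays lay above the others, but by less than for any other member. The difference from B73 was 1.14-fold (0.20 ± 0.07 SE, adjusted p = 0.0379) and from sh1 1.10-fold (0.14 ± 0.07, adjusted p = 0.145). The call against B73 is fragile, since it ended under 13 of the 20 alternative settings, with quantile normalization at 0.12 (adjusted p = 0.241), median centring at 0.17 (0.0745) and each line given its own spread at 0.20 (0.0591). It also ended without B73 replicate 2 (0.14, adjusted p = 0.0909).

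A pair of further subunit genes was also on the array. The gene agpsl1 (locus GLG1) was dim: its signal ranged from 47.9 to 58.9 in ae wx, from 47.7 to 55 in sh1 and from 64.7 to 103 in B73, never above the highest control without a maize target. It failed the filter on dim probe sets and was not tested. AGPLS3, looked up after the annotation had been read, stood at 237 to 282 in ae wx, 279 to 299.9 in sh1 and 225 to 312 in B73. These ranges overlap, and no comparison was called (differences of −0.02, 0.15 and −0.18, lowest adjusted p = 0.28). The interval for ae wx against B73, −0.29 to 0.24, holds the differences found for sh2 and Agpsemzm.

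The carrier gene bt1 was also highest in ae wx. Its signal was 13502, 14134 and 13414 in the ae wx arrays, 11411, 10691 and 11054 in the sh1 arrays, and 9189, 8402 and 11768 in the B73 arrays. The ae wx arrays lay above all others, while B73 replicate 3 lay above all sh1 arrays and the other B73 arrays lay below them. The CV of bt1 in B73 was 18%, against 2.87% in ae wx and 3.26% in sh1, the widest spread of any member in any line. The mean was 1.41-fold higher in ae wx than in B73 (0.50 ± 0.10 SE, adjusted p = 0.00274), and 0.64 without B73 replicate 3 or 0.40 without B73 replicate 2. Against sh1 ae wx was 1.24-fold higher (0.31 ± 0.10, adjusted p = 0.0411), a call that ended without any 1 of the ae wx or sh1 arrays (adjusted p = 0.069 to 0.123).

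Between sh1 and B73, bt1 was not called (0.19 ± 0.10 SE, 95% interval −0.04 to 0.42, adjusted p = 0.144). The value rests on single B73 arrays. It was 0.33 and called without replicate 3 (adjusted p = 0.000882), and 0.09 and not called without replicate 2 (adjusted p = 0.451).

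**Figure D2:**
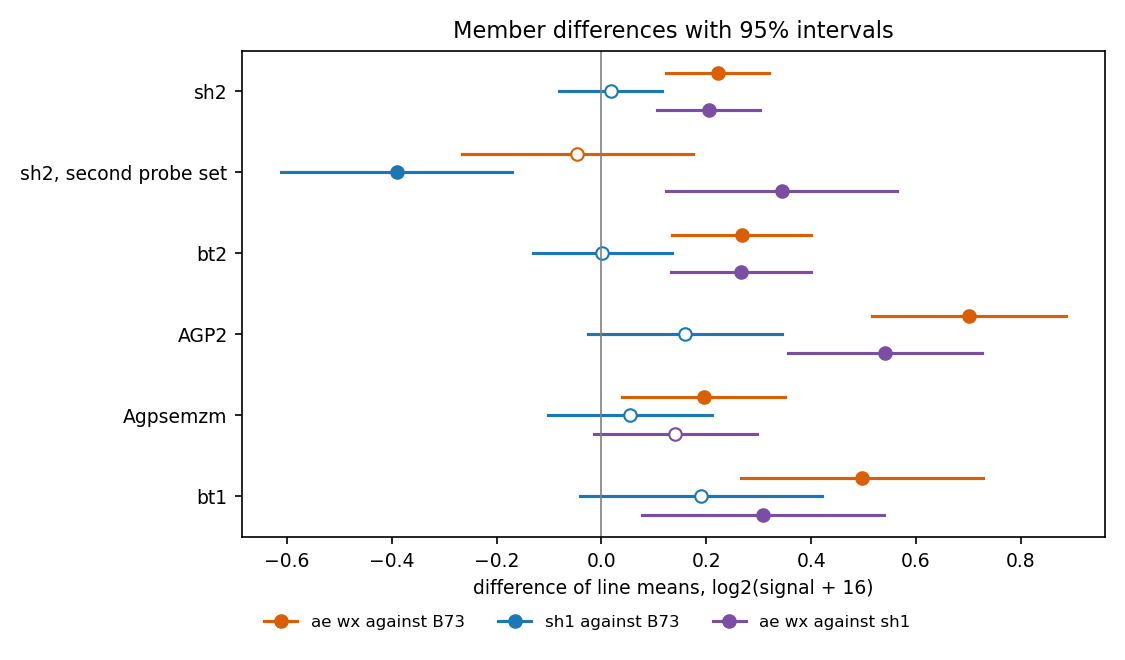
Difference of line means in log2(signal + 16) for each member probe set (rows) in the 3 comparisons (colours); lines are 95% intervals from the limma fit and filled points have an adjusted p under 0.05. With the first probe set for sh2, the 5 genes lie between 0.20 and 0.70 for ae wx against B73. For sh1 against B73 they lie between 0.002 and 0.19 with every interval crossing 0. The second probe set of sh2 lies at −0.05 for ae wx against B73 and at −0.39 for sh1 against B73.

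Within an array, bt1 minus bt2 was 0.26 ± 0.02 (log2, SD, n = 3) in ae wx, 0.21 ± 0.03 in sh1 and 0.03 ± 0.15 in B73. The B73 arrays read −0.03, −0.09 and 0.19, and each of them lay below every ae wx and sh1 array, replicate 3 by less than its second decimal. The exact permutation test over the 3 lines gave p = 0.00714 (adjusted p = 0.0214), for a pair chosen with earlier results known. Leaving out any 1 of the ae wx or sh1 arrays ended that call (adjusted p = 0.113 to 0.15), while leaving out any 1 of the B73 arrays did not.

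For bt1 minus sh2 the values were −0.15 ± 0.02 in ae wx, −0.25 ± 0.06 in sh1 and −0.42 ± 0.21 in B73. This difference was not called (exact permutation p = 0.075, adjusted p = 0.113). It was called without B73 replicate 3 (exact permutation adjusted p = 0.0107) and with the second probe set of sh2 in place of the first (adjusted p = 0.0321).

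**Figure D3:**
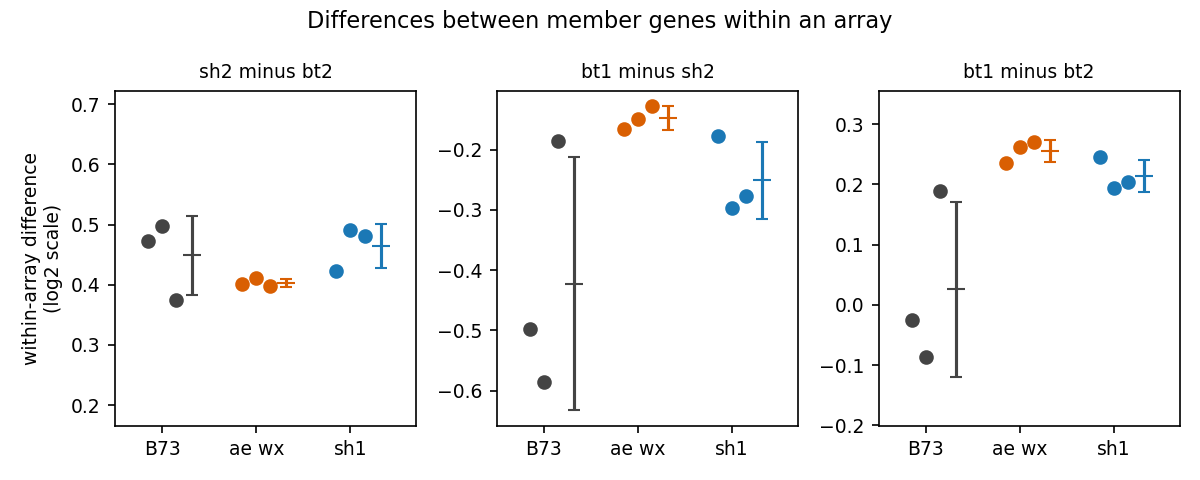
Log2 differences between the probe sets of sh2 and bt2, bt1 and sh2, and bt1 and bt2 within each array (vertical axes, same span in each panel), by line; points are the 3 arrays of a line and bars the mean ± SD. For bt1 minus bt2 the B73 arrays (−0.09 to 0.19) lie below all ae wx and sh1 arrays (0.19 to 0.27), with B73 replicate 3 nearest to them.

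Counted by gene, with the brighter probe set standing for sh2, 5 of 5 members were called higher in ae wx than in B73, where 53.4% of all probe sets tested were called, 29% higher and 24.3% lower. Their median difference was 0.27, against 0.04 over all probe sets. In ae wx against sh1, 4 of 5 were called higher, all but Agpsemzm, beside 36.6% of all probe sets called, 17.8% higher and 18.8% lower, with a median of 0.27 against 0.004. In sh1 against B73, 0 of 5 were called, where 55.9% of all probe sets were called, 30.4% higher and 25.4% lower. In limma at an unadjusted threshold of 0.05 the count there was also 0. The second probe set of sh2 is outside all 3 counts. It was not called in ae wx against B73 (−0.05, limma adjusted p = 0.715). It was called higher in ae wx than in sh1, and lower in sh1 than in B73. Of the calls counted, that of Agpsemzm in ae wx against B73 ended under 13 of the 20 alternative settings. That of bt1 in ae wx against sh1 ended under 8 of them. The 3 comparisons share arrays, so these counts are not independent of each other.

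The arrays of ae wx and B73 did not overlap for 5 of 5 genes, all higher in ae wx, as was so for 32.6% of all probe sets, with 27.5% lower. For ae wx and sh1 it was 5 of 5, all higher, beside 31.1% higher and 31.5% lower. For sh1 and B73 it was 1 of 5, AGP2, beside 32.6% higher and 28.3% lower. The second probe set of sh2 is again outside these counts. Its sh1 arrays lay below those of both other lines, and its ae wx and B73 arrays overlapped. The sharing of arrays holds for these counts too.

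For sh1 against B73 the intervals of the 5 genes, with the first probe set for sh2, bound a change. The upper limits reached 1.08-fold higher for sh2, 1.10-fold for bt2, 1.16-fold for Agpsemzm, 1.27-fold for AGP2 and 1.34-fold for bt1. The lower limits were between 0.91 and 0.98 of the B73 level. The second probe set of sh2 lay outside these, at 0.76 of the B73 level (95% interval 0.65 to 0.89). A change of the size seen in ae wx lay outside the interval for sh2 (first probe set), bt2 and AGP2, but not for Agpsemzm. For bt1 it lay just above the upper limit, at 0.50 against 0.42 on the log2 scale. These intervals use 1 spread shared by the lines, and B73 varied most, with a CV of 18% for bt1. A change of that size is therefore not excluded for bt1.

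**Figure D4:**
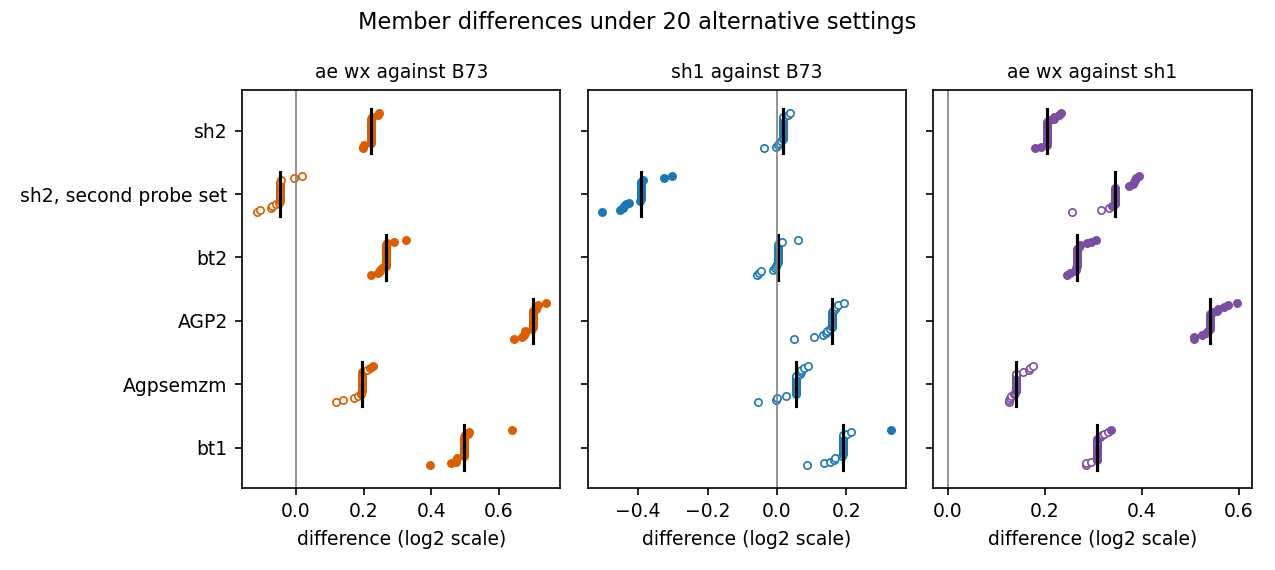
Difference of line means (log2 scale, horizontal axes) of each member probe set under each of 20 alternative settings (points, filled where the adjusted p was under 0.05) and as reported (black bars), in the 3 comparisons. The 20 values of sh2 (first probe set), bt2, AGP2 and bt1 for ae wx against B73 are all filled and run from 0.20 to 0.25, 0.22 to 0.33, 0.65 to 0.74 and 0.40 to 0.64. Those of the second probe set of sh2 are all open in that comparison.

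Across the arrays, the profiles of sh2, by its first probe set, and bt2 were near to each other. The second probe set of sh2 had another profile, as its values above show, and was not used here. Likeness was measured as the root mean square difference of log2 values over the 9 arrays after centring each gene on its own mean, so that it compares shape and not level. It is a description with no test, and genes of small amplitude lie near each other more easily than genes of large amplitude. Among 745 named genes, the nearest to sh2 was bt2 and the nearest to bt2 was sh2, at 0.04. Among all 12413 other probe sets tested, bt2 ranked 2 in nearness to sh2, and sh2 ranked 3 in nearness to bt2.

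The next named genes were the same for both. They were adh1, an alcohol dehydrogenase gene (0.05 from sh2 and from bt2), and ae1, the gene of starch branching enzyme IIb (0.06 and 0.05). Agpsemzm was the member next nearest to sh2, at 0.06 and rank 38. The carrier gene bt1 ranked 1980 and AGP2 ranked 4023, both with larger differences between lines than sh2.

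For AGP2, whose amplitude was larger, the named genes found were GBSSIIa, a granule-bound starch synthase gene, the cystatin gene cc7 (0.10) and AKHSDH1, an aspartate kinase and homoserine dehydrogenase gene (0.11). GBSSIIa was above the highest control without a maize target on 2 of 9 arrays and passed the filter through ae wx alone, so its place and distance are not read. For Agpsemzm they were C4ppdkZm1, a pyruvate phosphate dikinase gene (0.04), the sucrose phosphatase gene spp1 (0.05) and the profilin gene prf3 (0.05), which was above that control on 5 of 9 arrays. For bt1 they were GalDH (0.08), pdi7 of the protein disulphide isomerase family (0.08) and GAPC2, a cytosolic glyceraldehyde phosphate dehydrogenase gene (0.10).

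Of the other starch genes set down from the pathway, 14 were on the array and 11 were bright enough to test. In ae wx against B73, 5 were called higher and 3 lower, with a median of 0.28, beside 29% higher and 24.3% lower of all probe sets. One of the 5 is GBSSIIa, whose signal was 147 to 155 in ae wx, 74.6 to 97.1 in B73 and 93.3 to 104 in sh1. It was not above the highest control on any B73 or sh1 array and had to differ to pass the filter, and without it the counts were 4 and 3 of 10 with a median of 0.08. The highest was sbe1, starch branching enzyme I, at 0.81 ± 0.11 (SE, adjusted p = 0.000187), and the lowest was sus2, a sucrose synthase gene, at −3.76 ± 0.21 (adjusted p = 3.43e-07), with 2 of 3 ae wx arrays above the highest control. The gene wx1 was at −1.60 ± 0.10 (adjusted p = 1.14e-06) and ae1 at 0.28 ± 0.06 (adjusted p = 0.00396), beside 0.22 for sh2 and 0.27 for bt2. A dimmer probe set of ae1 was at 0.49 ± 0.10.

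In sh1 against B73, 2 of the other starch genes were called higher and 6 lower, with a median of −0.21, beside 30.4% higher and 25.4% lower of all probe sets. The 8 calls were 5 without sh1 replicate 3. The lowest was the sh1 gene itself (−3.24 ± 0.06 SE, adjusted p = 3.3e-10, with a further probe set at −5.17). Its dimmest probe set was not above the highest control on any array of that line, so no size is given. The highest was sus1, a further sucrose synthase gene (0.45 ± 0.17, adjusted p = 0.0468), whose sh1 arrays read 6642, 3999 and 4391. Without sh1 replicate 1 it was at 0.23 (adjusted p = 0.13), below zSSIIb, a starch synthase gene, at 0.42 on all arrays, and its call ended in 7 of the 9 fits that left out 1 array. Of genes on either side of ADP-glucose in the pathway, sus2, whose enzyme cleaves sucrose, was at −2.60 ± 0.21 (adjusted p = 4.47e-06), and wx1, whose enzyme uses ADP-glucose, was at −0.47 ± 0.10 (adjusted p = 0.00357). These steps did not go 1 way. Of the sucrose synthase and starch synthase genes named above, the sh1 gene was lower, but sus1 and zSSIIb were called higher.

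In ae wx against sh1, 5 of the 11 were called higher and 2 lower, with a median of 0.27, or 4 and 2 of 10 with a median of 0.26 without GBSSIIa. Of all probe sets, 17.8% were higher and 18.8% lower. The sh1 gene was the highest (3.12 ± 0.06 SE, adjusted p = 6.89e-10) and sus2 the lowest (−1.16 ± 0.21, adjusted p = 0.00165). The gene ae1 was at 0.26 ± 0.06 (adjusted p = 0.00863), beside 0.20 for sh2 and 0.27 for bt2.

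**Figure D5:**
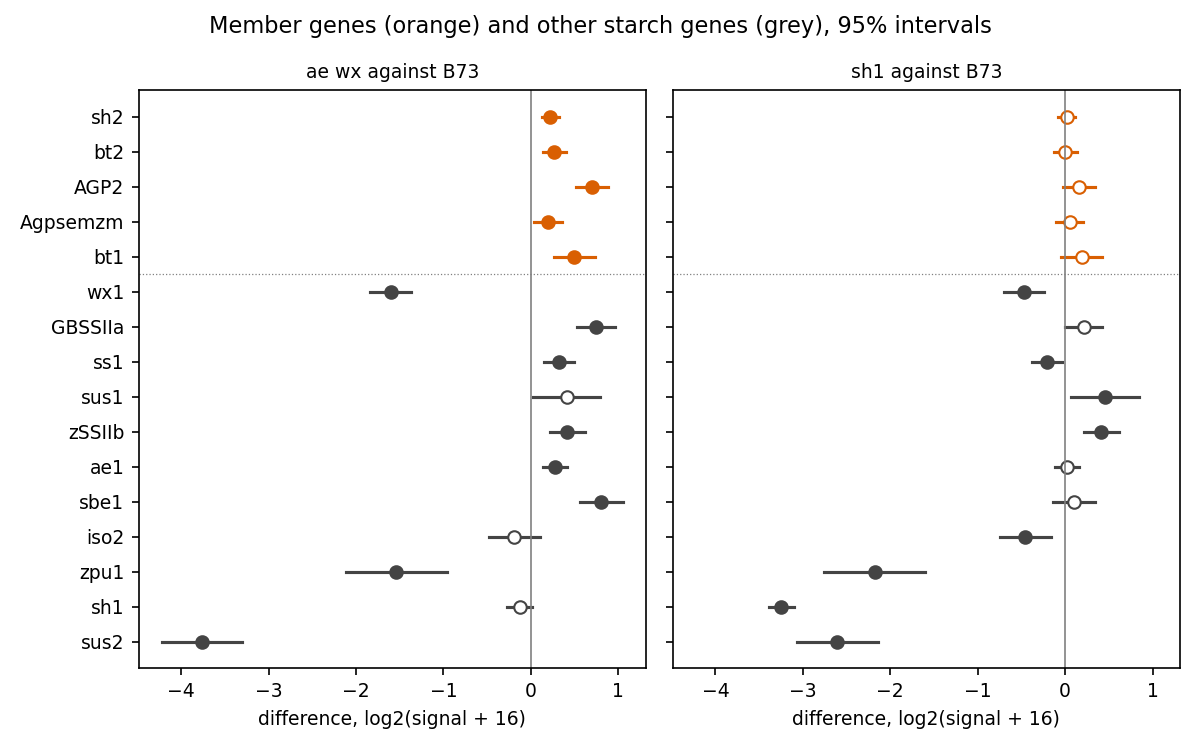
Difference of line means in log2(signal + 16) for the 5 member genes (orange) and 11 other starch genes (grey) in ae wx against B73 and in sh1 against B73, with 95% intervals; filled points have an adjusted p under 0.05. The members, with the first probe set for sh2, lie between 0.002 and 0.70. Of the other starch genes, sus2, wx1 and zpu1, a pullulanase gene, are called lower in both panels, and zSSIIb is called higher in both. The highest in ae wx against B73 is sbe1, at 0.81, and the sh1 gene is at −3.24 in the line named for it. GBSSIIa is drawn as fitted, but it was at control level in B73 and sh1, so its points are not to be read as sizes.

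Other values of the samples moved with the lines as well. Embryo and aleurone markers, relevant to a gene named for the embryo, were on the array for 8 genes, of which 6 were tested. Of these, 1 was called higher and 3 lower in ae wx than in B73, and 0 higher and 2 lower in sh1 than in B73. For these and the next marker counts, the shares of all probe sets tested were 29% higher and 24.3% lower in ae wx against B73. They were 30.4% higher and 25.4% lower in sh1 against B73. The summed signal of the embryo and aleurone markers ranged from 11321 to 12462 in ae wx, from 11800.1 to 15077 in sh1 and from 14371 to 19843 in B73. Of 6 basal transfer layer markers tested of 7, 4 were called higher and 0 lower in ae wx than in B73, and likewise in sh1 than in B73. Between ae wx and sh1, 0 were called, beside 17.8% higher and 18.8% lower of all probe sets. The 4 include bap2, which read 40.9 to 90.1 in B73, never above the highest control. It passed the filter only through ae wx and sh1, so its direction against B73 is not read. The marker meg2, also among the 4, was above that control on B73 replicate 2 alone of the B73 arrays. The sums ran from 2083 to 5216 in ae wx, from 2535 to 4278 in sh1 and from 1294 to 1415 in B73. Both green tissue markers tested of 5 were called lower in ae wx than in B73. The marker psah1 read 74.1 to 81 in ae wx, never above the highest control. It passed the filter only through the other lines, so its direction is not read. Its B73 arrays read 546, 730 and 108, the last not above that control. The sums were 479.7 to 494 in ae wx, 472 to 518 in sh1 and 629 to 1201 in B73. No marker was at 0 on any array.

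Ratios of 3′ over 5′ signal of maize control genes, a sign of RNA quality, differed between ae wx and B73 by −0.34 for cyclophilin to 0.40 for actin (log2, 5 control genes), and between sh1 and B73 by −0.39 for cyclophilin to 0.58 for GAPDH. The differences of the member genes, with the first probe set for sh2, lay between 0.20 and 0.70 for ae wx against B73. The part of RNA quality, of the other tissues and of array scaling in the members' differences was not tested beyond the scaling alternatives given here.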

How the data were processed

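For each of 9 arrays of 3 lines, the authors deposited a linear intensity for every probe set (the signal). The submitters' processing notes list GCOS 1.4 but say nothing of its role. The sources used here give neither the summary algorithm nor the scaling target. The values held no negative numbers and 5 zeros, were used as deposited, and carry no detection calls, so the number of arrays limits precision. Replicate independence rests on the label biological, and otherwise p-values measure only the spread between these samples.

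Probe sets were named through the platform annotation and RefSeq genes (assembly Zm-B73-REFERENCE-NAM-5.0), used for names only. Of 17621 probe sets, 1452 had 1 symbol, 1 had several and 16168 none, and 1377 matched RefSeq by Entrez identifier. Names shared with genes of another function were removed by hand (4 genes). Kept were probe sets at or over 20% of the array's 2% trimmed mean in at least 3 arrays. Values were tested as log2(signal + 16), which understates changes of low genes, with limma 3.58.1 in R 4.3.3: 1 mean per line over all 9 arrays, eBayes with an intensity trend, two-sided, Benjamini-Hochberg adjustment, called under 0.05. The fit was tested on simulated data in which the lines had the same spread, so that test does not cover the wider spread of B73. Exact permutation tests were run in Python 3.11.15 and figures drawn with matplotlib 3.10.9.

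The members and lists were chosen with earlier results of these data known. Named were every member probe set, the other starch genes at the loci of the lines, sus2 and the highest and lowest called in each comparison, and the 3 genes nearest each member. GBSSIIa's values, zpu1, zSSIIb, agpsl1 and AGPLS3 were added in the text after their values were seen. Same-numbered arrays of different lines did not deviate together (r from −0.23 to 0.14), so the numbers were not taken to pair samples. Within lines, sh1 replicates 2 and 3 deviated together (r = 0.41), while every other pair of a line had r from −0.86 to −0.24. These 2 may not be independent, or sh1 replicate 1 may stand apart, since deviations from a line's own mean cancel out. Neither was tested, and an alternative averaged replicates 2 and 3. No value column lacked a sample. Sequences of the members are not used here.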

Additional observations from a re-analysis of the deposited data

How the results depend on the processing

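Across 20 alternative settings, 9 of which left out 1 array, sh2 (first probe set), bt2, AGP2 and bt1 stayed called higher in ae wx than in B73. The first probe set of sh2, bt2 and AGP2 also stayed called higher in ae wx than in sh1. The second probe set of sh2 was called in none of the 20 for ae wx against B73 (−0.12 to 0.02, limma adjusted p = 0.378 to 0.965). Its call in ae wx against sh1 ended under 3 of them. Leaving out 1 array gave 4 to 5 of the 6 member probe sets called in ae wx against B73, 1 to 2 in sh1 against B73 and 3 to 5 in ae wx against sh1. It gave 5 to 8 called among the other starch genes in sh1 against B73 (8 as reported, 5 without sh1 replicate 3). Counts over all probe sets stayed within 1.5 times the reported ones.

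For the within-array differences, leaving out 1 array, an alternative added after seeing the data, gave ae wx minus B73 from −0.082 to −0.021 for sh2 minus bt2, 0.19 to 0.39 for bt1 minus sh2 and 0.17 to 0.31 for bt1 minus bt2, all on the log2 scale. The second probe set of sh2 gave −0.31 and 0.54 for the first and second of these, and both then passed the exact permutation test; the cause was not tested.

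A fit with the replicate number as a replicate block called 4 of the 6 member probe sets in ae wx against B73 where 5 were reported, the call lost being that of Agpsemzm (adjusted p = 0.0553), and 5 in ae wx against sh1 and 1 in sh1 against B73, as reported. Same-numbered arrays did not deviate together. With sh1 replicates 2 and 3 averaged, the calls of Agpsemzm against B73 (adjusted p = 0.0617) and of bt1 in ae wx against sh1 (adjusted p = 0.107) ended.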
